A study of Homo sapiens with 12 samples.

Results

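A set of 10 genes of the NF-kB pathway was followed across 4 groups of Caco-2 libraries: the subunit genes NFKB1, NFKB2 and RELB, the IkB genes NFKBIA, NFKBIB and NFKBIE, the feedback genes TNFAIP3 and BIRC3, and the target genes TNFAIP2 and ICAM1. They were chosen by symbol, with earlier results of these data known, so counts of members set beside all genes are a description and no test. All 10 were found among the 26125 rows of the deposited table. All 10 also passed the filter of a mean of at least 1 FPKM, with 12928 genes in all. Caco-2, a cell line from a human colon tumour, grows into a polarised sheet with features of absorptive enterocytes. RNA was sequenced from 3 libraries in each of 4 groups of cells grown and differentiated for 21 days in transwell chambers. The control group had no treatment, the CW14 group received the bacterium Bacillus subtilis CW14, the OTA group received the mould toxin ochratoxin A at 15 µmol/L, and the OTA + CW14 group received both, each in the apical chamber. The labels give neither the time of exposure nor a readable bacterial dose, and nothing says that replicates were separate cultures, so p-values measure the spread between these libraries, which may be technical. Values are FPKM, a fragment count scaled to transcript length and library size, which allows levels of different genes to be set side by side, and ± is the SD of 3 libraries (n = 3). In bulk RNA, fewer cells with a transcript and less transcript per cell cannot be told apart.

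NF-kB is a family of dimeric transcription factors. In resting cells IkB proteins hold the dimers in the cytoplasm. Bacterial products and cytokines such as TNF activate a kinase complex that marks IkB for degradation, and the freed dimers enter the nucleus and switch on inflammatory genes. Among these genes are the pathway's own brakes, and the gut epithelium uses this circuit to answer bacteria without lasting inflammation. NFKB1 and NFKB2 encode precursors of the DNA-binding subunits p50 and p52, and RELB encodes a subunit that pairs with p52. NFKBIA, NFKBIB and NFKBIE encode IkB alpha, beta and epsilon. TNFAIP3 encodes the ubiquitin-editing enzyme A20, and BIRC3 encodes the ubiquitin ligase cIAP2. ICAM1 encodes an adhesion molecule that binds leukocytes, and TNFAIP2 is a gene first found as induced by TNF.

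The start regions of the members are shown because NF-kB dimers bind a short DNA element. Whether such elements had a part in the differences below was not tested. RefSeq start windows (GRCh38.p14, 250 bases before to 50 after a start) were found for 8 of the 10 genes, with none for RELB and NFKBIE. Motifs were searched on both strands: the letters GGG, any 2 bases and then TTTCC as the first, and GGAATTTCC, which can overlap it, as the second. Both were chosen after these windows had been read, so the shares that follow are a description and no test. The first lay in at least 1 window of 6 of the 8 genes, and of 2.33% of 27305 genes in the whole table (1.91% of its 35116 windows). The second lay in 4 of the 8, and in 0.560% of all genes. Either motif lay in 7 of the 8, the exception being TNFAIP2, and in 2.71% of all genes. A match is a description of the letters and not a measured binding site. The 250 bases before the start are printed 5′ to 3′ on the gene's strand for the 4 members that rose with CW14, with matches in capitals. The windows are chr14:35404750-35404999 on the minus strand for NFKBIA, chr6:137867009-137867258 on the plus strand for TNFAIP3, chr11:102317234-102317483 on the plus strand for BIRC3 and chr19:10270870-10271119 on the plus strand for ICAM1.
NFKBIA: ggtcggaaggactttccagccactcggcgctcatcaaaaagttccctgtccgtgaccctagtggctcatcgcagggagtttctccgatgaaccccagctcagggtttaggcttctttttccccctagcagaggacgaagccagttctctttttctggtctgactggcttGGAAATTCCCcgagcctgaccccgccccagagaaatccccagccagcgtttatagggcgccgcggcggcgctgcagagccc
TNFAIP3: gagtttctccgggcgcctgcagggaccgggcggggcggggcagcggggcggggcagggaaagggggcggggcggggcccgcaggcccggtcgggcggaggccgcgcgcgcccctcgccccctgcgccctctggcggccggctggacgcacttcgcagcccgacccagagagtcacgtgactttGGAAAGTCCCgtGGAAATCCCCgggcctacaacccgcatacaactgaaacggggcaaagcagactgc
BIRC3: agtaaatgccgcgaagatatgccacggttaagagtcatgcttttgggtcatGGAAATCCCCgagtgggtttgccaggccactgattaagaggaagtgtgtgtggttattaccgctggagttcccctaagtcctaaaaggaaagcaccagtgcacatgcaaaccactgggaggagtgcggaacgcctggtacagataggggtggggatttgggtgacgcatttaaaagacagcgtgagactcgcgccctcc
ICAM1: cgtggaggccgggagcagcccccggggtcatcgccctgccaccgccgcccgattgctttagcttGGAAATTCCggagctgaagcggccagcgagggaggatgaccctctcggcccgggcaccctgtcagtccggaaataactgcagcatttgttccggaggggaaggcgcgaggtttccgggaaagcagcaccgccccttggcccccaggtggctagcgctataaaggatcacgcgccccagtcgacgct
In NFKBIA the match ran from base -81 to -72 before the start. TNFAIP3 had a pair of matches, from -67 to -58 and from -55 to -46. The BIRC3 match lay farther out, from -199 to -190. The ICAM1 match was to the second motif only, from -186 to -178. Matches were not limited to the genes that rose with CW14. Stretches of 30 bases around a match in the other members are chr4:102501300-102501329 for NFKB1, chr10:102394490-102394519 and chr10:102395674-102395703 for a pair of the listed starts of NFKB2 (A and B), and chr19:38899931-38899960 for the second listed start of NFKBIB, all on the plus strand.
NFKB1: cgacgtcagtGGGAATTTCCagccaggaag
NFKB2 start A: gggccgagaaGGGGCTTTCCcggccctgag
NFKB2 start B: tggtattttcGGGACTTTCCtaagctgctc
NFKBIB: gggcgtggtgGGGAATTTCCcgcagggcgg

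The libraries were checked first. The label of an enterocyte-like line was met by 15 of 16 enterocyte markers that passed the filter, among them KRT8, EPCAM, CDX2, HNF4A and APOA1, while sucrase-isomaltase (SI) did not exceed 0.148 FPKM in any library. Of 13 immune, stromal and endothelial markers, PTPRC, MS4A1 and COL1A2 were at 0 in all 12 libraries, and 3 (CD14, CD68 and LYZ) exceeded 10 FPKM in some library. The summed level of these 13 markers was 121.9 to 155.7 FPKM in control, 102.2 to 127.7 in CW14, 168.7 to 208.0 in OTA and 110.9 to 141.3 in OTA + CW14. CD68 and LYZ made up most of it. In the same order of groups, CD68 had means of 80.8, 71.8, 116 and 61.8 FPKM and LYZ of 44.9, 30.8, 62.7 and 46.6. The summed level of the enterocyte markers was 9870.1 to 10431.1 FPKM in control, 8528.0 to 9399.9 in CW14, 10921.9 to 11799.1 in OTA and 10277.1 to 26983.2 in OTA + CW14. Most of the highest sum was APOA1, at 19185 FPKM in OTA + CW14 replicate 3. The part of these levels in the results was not tested. Relative depth, read from the steps of low FPKM values against control replicate 1, ran from 0.470 in OTA + CW14 replicate 3 to 1.60 in OTA replicate 1. OTA + CW14 replicate 3 stood apart, with a mean correlation of 0.885 with its group against 0.916 to 0.958 in the other libraries. Calls of the members that changed when this library was left out are given beside the result.

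In untreated cells the brakes NFKBIA and TNFAIP3 were the most abundant members. NFKBIA had the highest level, at 228, 239 and 179 FPKM in control replicates 1 to 3, above 97.4% of tested genes. TNFAIP3 came next at 53.6 ± 7.13 FPKM. NFKBIB (25.5 ± 2.55), ICAM1 (23.2 ± 1.79) and RELB (22.7 ± 4.89) overlapped one another, as did BIRC3 (15.0 ± 1.13) with NFKBIE (14.5 ± 2.23). The subunit genes NFKB1 (5.58 ± 1.24) and NFKB2 (4.89 ± 0.175) overlapped at a lower level, and TNFAIP2 was lowest at 2.19 ± 0.416 FPKM. RELA, which encodes the main partner of p50 and is no member, had 40.0, 50.1 and 49.2 FPKM. The CW14 group had the highest mean in 9 of 10 members, NFKBIB being the exception with its highest mean in OTA + CW14. The order CW14, control, OTA + CW14, OTA held for the means of 6 of 10 members. These orders were not counted over all genes tested, so neither count is read as a result about the members. Both include differences that were not called, such as those of RELB and NFKBIE with CW14.

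**Figure D1:**
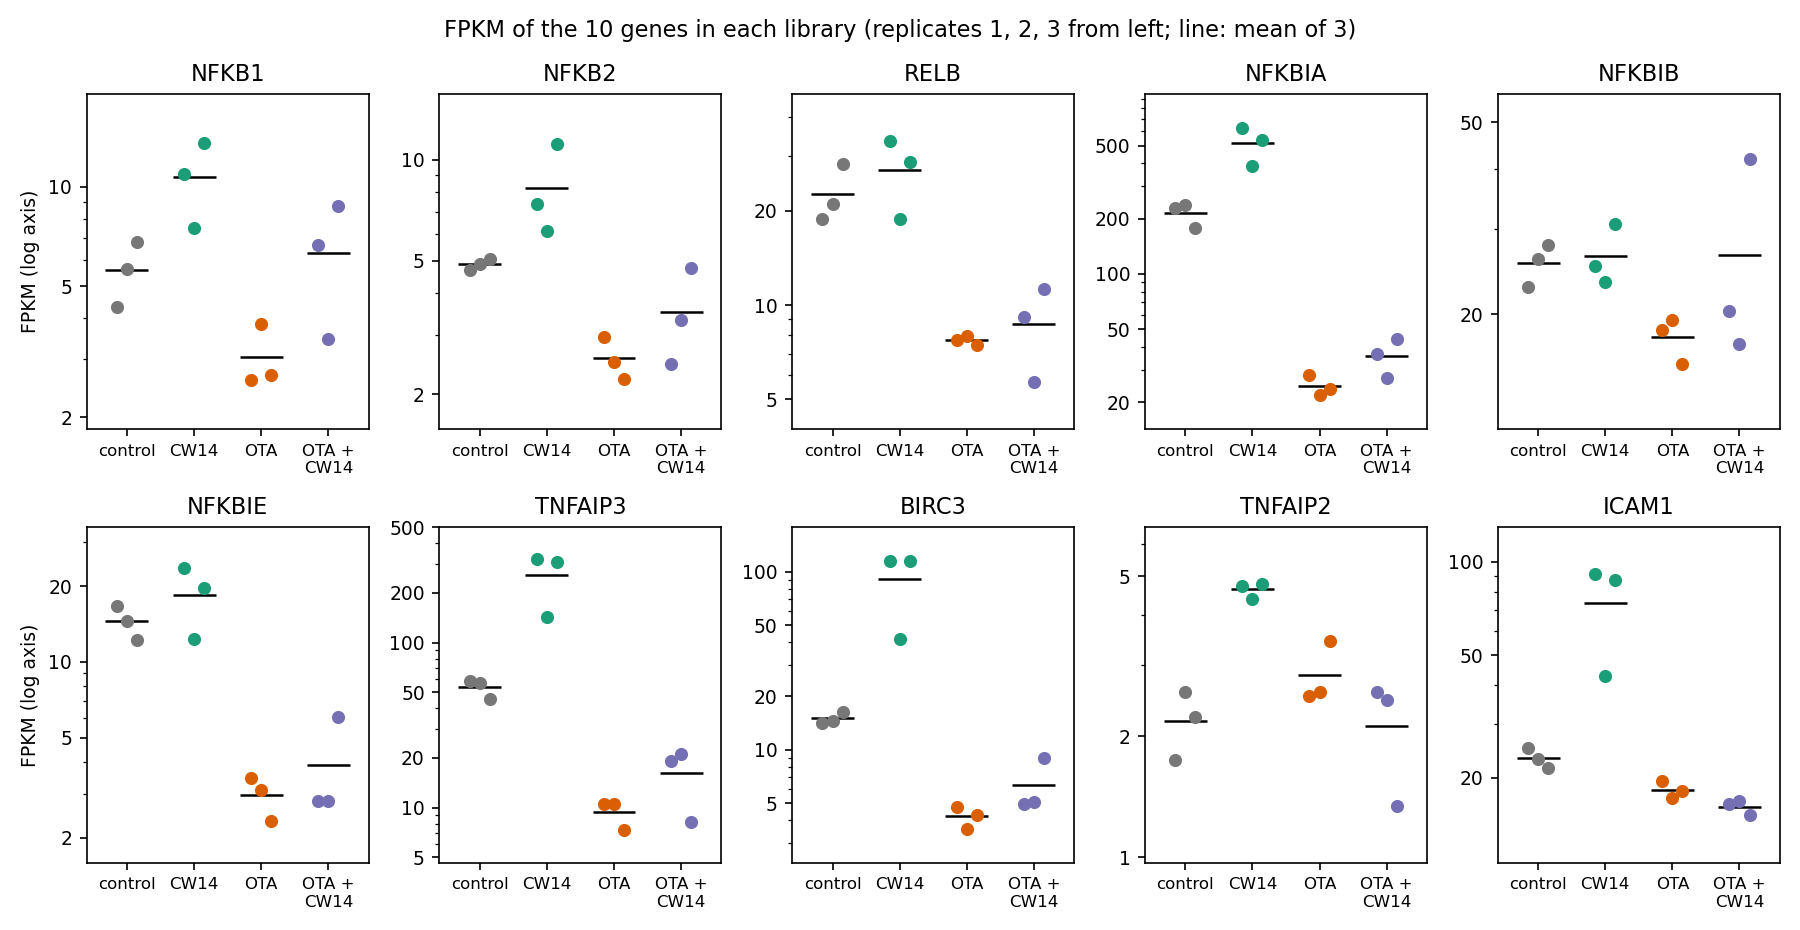
FPKM of each of the 10 genes (log axis, a separate scale per panel) in the 12 libraries, grouped as control, CW14, OTA and OTA + CW14, with replicates 1 to 3 from left to right and a line at the mean of 3. TNFAIP3 and BIRC3 are highest in the 3 CW14 libraries, of which replicate 2 is the lowest, and NFKBIA in all 6 libraries with OTA lies at or below 44.2 FPKM.

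The effect of the toxin by itself on the pathway was read from OTA against control. In OTA libraries 6 of 10 members fell and none rose (limma, adjusted p under 0.05, the call used throughout). Over all genes tested 12.9% were called lower and 4.82% higher, that is 1665 and 623 genes, or 1342 and 1153 with each library centred on its median. The members' median log2 difference was -1.08, against 0.03 for all genes tested. Log2 differences are on the log2(FPKM + 1) scale and understate the change of low genes. The IkB genes NFKBIA and NFKBIE and the feedback genes TNFAIP3 and BIRC3 had the largest falls, ahead of the subunits RELB and NFKB2. NFKB1, NFKBIB, TNFAIP2 and ICAM1 were not called.

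Among the IkB genes, NFKBIA (hg19 chromosome 14, 35870714 to 35873960) had 28.2, 22.0 and 23.8 FPKM with OTA, against 228, 239 and 179 in control. The groups were far apart, with a ratio of control to OTA means of 8.73. NFKBIA fell by 3.07 on the log2 scale (SE 0.21, limma adjusted p = 2.35e-06). NFKBIE (chromosome 6, 44225901 to 44233525) had 16.7, 14.6 and 12.3 FPKM in control and 3.46, 3.10 and 2.33 with OTA, again without overlap. Its log2 difference was -1.97 (SE 0.28, limma adjusted p = 0.000418). NFKBIB (chromosome 19, 39369193 to 39399534, a locus that overlaps SIRT2) had 22.8, 26.0 and 27.8 FPKM in control and 18.5, 19.5 and 15.7 with OTA. The NFKBIB libraries did not overlap either, but its log2 difference of -0.49 (95% interval -1.06 to 0.08) was not called, at a limma adjusted p of 0.227.

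Of the feedback enzymes, TNFAIP3 (chromosome 6, 138144805 to 138204451, overlapping the transcript LOC100130476) had 58.2, 57.1 and 45.4 FPKM in control and 10.5, 10.5 and 7.28 with OTA. It fell by 2.39 on the log2 scale (SE 0.35, limma adjusted p = 0.000607). BIRC3 (chromosome 11, 102188179 to 102210135) had 14.2, 14.5 and 16.3 FPKM in control and 4.79, 3.58 and 4.29 with OTA. Its log2 difference was -1.62 (SE 0.34, limma adjusted p = 0.00578). Both genes were at or below 10.5 FPKM in every OTA library.

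Of the subunits, RELB (chromosome 19, 45504705 to 45541456) had 18.9, 21.0 and 28.2 FPKM in control and 7.76, 7.95 and 7.43 with OTA. RELB fell by 1.43 on the log2 scale (SE 0.25, limma adjusted p = 0.00194). NFKB2 (chromosome 10, 104153865 to 104162286) had 4.71, 4.91 and 5.06 FPKM in control and 2.97, 2.50 and 2.22 with OTA. Its fall by 0.73 on the log2 scale passed narrowly (limma adjusted p = 0.0436) and was kept in 8 of 18 alternative settings. It was lost without any 1 control or OTA library or CW14 replicate 1 (limma adjusted p of 0.0603 to 0.147). The call was also lost with each library centred on its median, with quantile normalization and without the filter (limma adjusted p of 0.0712 to 0.0806). NFKB1 (chromosome 4, 103422484 to 103538459) had 4.31, 5.63 and 6.80 FPKM in control and 2.60, 3.84 and 2.70 with OTA, without overlap, and was not called (log2 difference -0.70, limma adjusted p = 0.121). RELA was not called either (log2 difference -0.26, limma adjusted p = 0.251).

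The adhesion gene ICAM1 (chromosome 19, 10381515 to 10397291) had 25.1, 23.1 and 21.5 FPKM in control and 19.5, 17.2 and 18.1 with OTA. The groups did not overlap, and the log2 difference of -0.33 (95% interval -0.83 to 0.18) was not called. TNFAIP2 (chromosome 14, 103592662 to 103603776) had 1.75, 2.58 and 2.24 FPKM in control and 2.52, 2.58 and 3.44 with OTA, with overlap. In total the OTA libraries lay below all control libraries in 9 of 10 members, and above them in none, against 25.7% and 24.4% of all genes tested. RELB, NFKBIA, NFKBIE, TNFAIP3 and BIRC3 kept their call in each of 18 alternative settings. With only the OTA and control libraries fitted, 9 members were called lower, with NFKB1, NFKBIB and ICAM1 added (limma adjusted p = 0.0262, 0.0145 and 0.0311). NFKBIB was also called without OTA + CW14 replicate 3 (limma adjusted p = 0.0136). Centring each library on its median moved the OTA against control difference of all genes by 0.105, and NFKBIA then had -2.97 on the log2 scale.

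The effect of the bacteria by themselves was read from CW14 against control. In CW14 libraries 4 of 10 members rose and none fell, against 0.217% of all genes called higher and 0.147% called lower (0.364% in either direction). The members that rose were BIRC3, TNFAIP3, ICAM1 and NFKBIA. The median log2 difference of the 10 was 0.82, against -0.02 for all genes tested. The CW14 libraries lay above all control libraries in 7 of 10 members, against 9.66% of all genes tested.

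BIRC3 rose most, to 115, 41.7 and 115 FPKM, from 14.2 to 16.3 in control. The ratio of means was 6.04 and the log2 difference 2.38 (SE 0.34, limma adjusted p = 0.00895). TNFAIP3 rose to 319.8, 143 and 310.1 FPKM, a ratio of means of 4.81 and a log2 difference of 2.16 (SE 0.35, limma adjusted p = 0.023). With CW14, TNFAIP3 stood above 98.0% of tested genes. ICAM1 rose to 91.3, 42.6 and 87.6 FPKM, with a log2 difference of 1.55 (SE 0.23, limma adjusted p = 0.0131). NFKBIA rose to 624, 387 and 533 FPKM, with a log2 difference of 1.24 (SE 0.21, limma adjusted p = 0.031). In each of the 4 genes the lowest CW14 library was above the highest control.

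The other IkB genes had smaller differences. NFKBIE had 23.5, 12.3 and 19.7 FPKM with CW14 (log2 difference 0.29, 95% interval -0.31 to 0.90) and overlapped the controls. NFKBIB had 25.2, 23.3 and 30.8 FPKM (log2 difference 0.04, 95% interval -0.52 to 0.61). The 3 IkB genes therefore stood side by side with 1 called and 2 not called. The subunit genes were not called. NFKB1 had 11.0, 7.49 and 13.6 FPKM and NFKB2 had 7.37, 6.12 and 11.2, both above all control libraries, with log2 differences of 0.81 and 0.61. RELB overlapped the controls at 33.4, 18.8 and 28.7 FPKM (log2 difference 0.22). TNFAIP2 had 4.73, 4.39 and 4.78 FPKM, above all controls, with a log2 difference of 0.83 (SE 0.20) and a limma adjusted p of 0.192. Without OTA + CW14 replicate 3, which enters this comparison through the shared estimate of spread, TNFAIP2 was called (limma adjusted p = 0.0312).

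CW14 replicate 2 was the lowest of the 3 CW14 libraries in all 10 members, against 35.1% of all genes tested. Its TNFAIP3 level was 143 FPKM against 310.1 and 319.8. Its recovered relative depth was 0.774, against 0.895 and 0.853 in the other CW14 libraries. Without it, the count of members called was again 4. The 4 calls depended on the libraries used. Without any 1 of the 3 control libraries, or without CW14 replicate 1 or 3, none of BIRC3, TNFAIP3, ICAM1 and NFKBIA was called. In those 5 settings their log2 differences stayed between 1.09 and 2.44, with limma adjusted p from 0.0536 to 0.181. The NFKBIA call was also lost without any 1 OTA library or OTA + CW14 replicate 1 (limma adjusted p of 0.0508 to 0.0646), and the TNFAIP3 call without OTA replicate 1 (limma adjusted p = 0.0541).

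**Figure D2:**
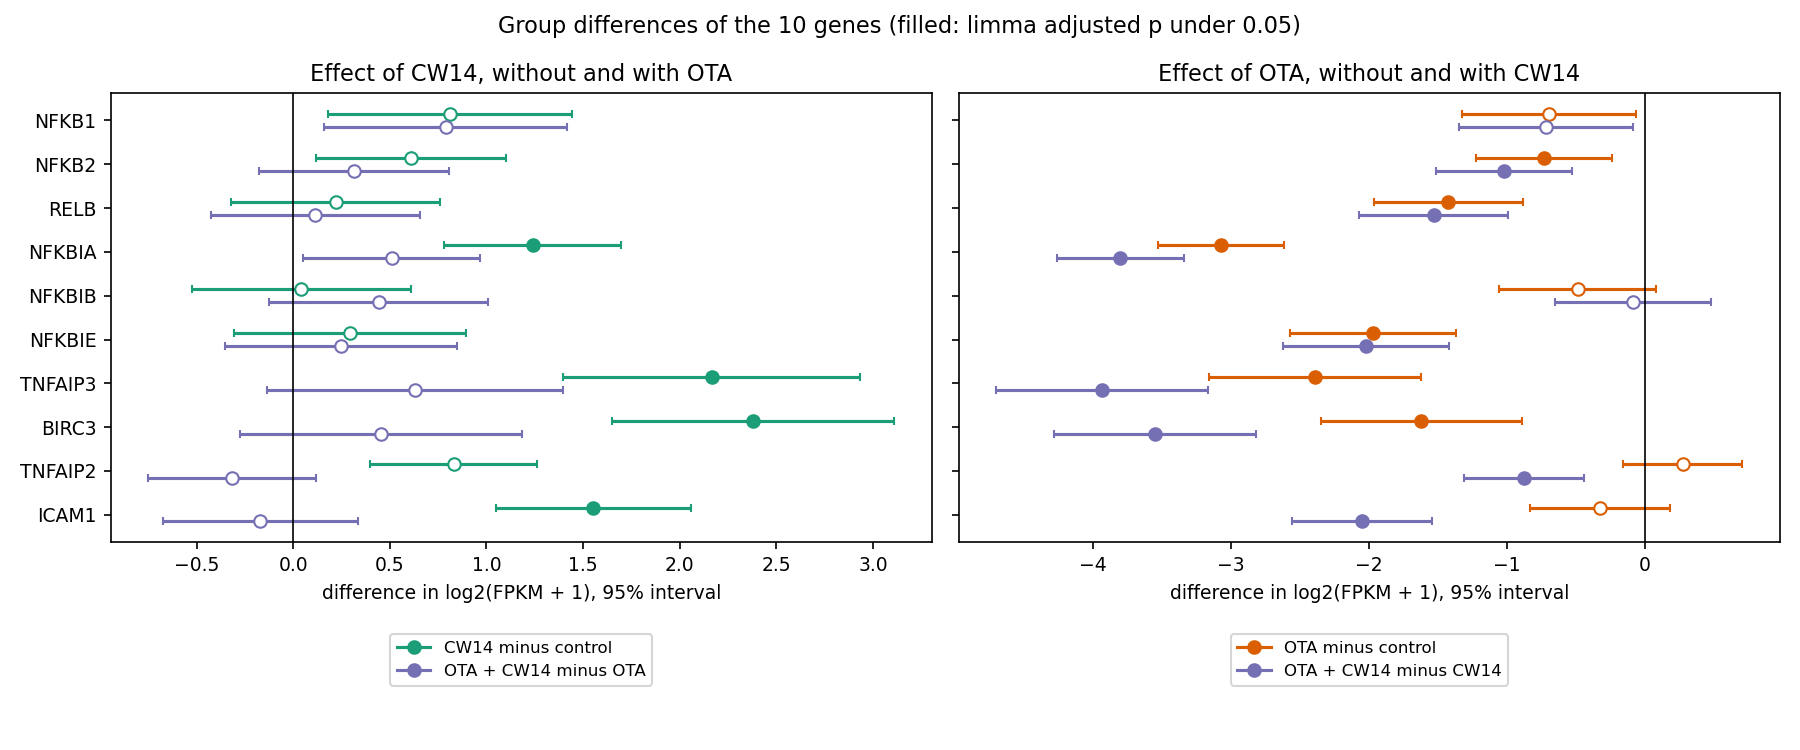
Differences in log2(FPKM + 1) for the 10 genes with 95% intervals from limma, for CW14 without and with OTA (left) and for OTA without and with CW14 (right), filled where the adjusted p was under 0.05. With OTA present no CW14 difference is filled, while TNFAIP3 with CW14 alone is at 2.16, and the OTA differences of TNFAIP3, BIRC3 and ICAM1 are further below 0 with CW14 than without it.

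The effect of the bacteria in toxin-treated cells was read from OTA + CW14 against OTA. None of the 10 members was called in either direction, against 16.0% of all genes tested. The background was 7.79% called higher (1007 genes) and 8.22% called lower (1063 genes), or 774 and 1335 genes with each library centred on its median. This background depended on the fit. With only the OTA and OTA + CW14 libraries fitted, 70 genes were called in place of 2070, and again none of the members. At an unadjusted limma p under 0.05 there were 2 members, NFKB1 and NFKBIA, against 33.2% of all genes. TNFAIP3 had 19.2, 21.1 and 8.14 FPKM, against 10.5, 10.5 and 7.28 with OTA alone, a ratio of means of 1.71. Its log2 difference was 0.63 (95% interval -0.14 to 1.40). BIRC3 had 4.93, 5.09 and 8.98 FPKM, just above the OTA libraries (log2 difference 0.45, 95% interval -0.28 to 1.18). NFKBIA had 36.6, 27.2 and 44.2 FPKM and overlapped the OTA libraries (log2 difference 0.51, 95% interval 0.05 to 0.97). ICAM1 had 16.4, 16.8 and 15.1 FPKM, just below the OTA libraries (log2 difference -0.17, 95% interval -0.68 to 0.34). These intervals leave room for a rise of up to 1.40 in TNFAIP3. Without overlap, 1 of 10 members lay above the OTA libraries (BIRC3) and 1 below (ICAM1), against 17.8% and 16.6% of all genes tested.

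The other members had log2 differences from -0.32 in TNFAIP2 to 0.79 in NFKB1 in this comparison. OTA + CW14 replicate 3 was the highest of its group in 7 members and the lowest in 3, namely TNFAIP3, TNFAIP2 and ICAM1. Over all genes tested it was the highest in 44.9% and the lowest in 42.2%. Without it TNFAIP3 was called higher in OTA + CW14 than in OTA (log2 difference 1.03, limma adjusted p = 0.0313). Without OTA + CW14 replicate 2, NFKB1 (1.11, limma adjusted p = 0.0137) and NFKBIA (0.69, limma adjusted p = 0.0338) were called higher. NFKBIB in OTA + CW14 had 20.2, 17.4 and 42.0 FPKM, with replicate 3 far above the others.

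Whether the CW14 difference itself changed with OTA was tested as an interaction, the CW14 difference with OTA minus that without it. ICAM1, BIRC3 and TNFAIP2 were called, all negative, against 1.49% of all genes called negative and 1.85% called positive, 3.33% in all (192 and 239 genes, or 262 and 171 with each library centred on its median). For ICAM1 the interaction was -1.72 on the log2 scale (95% interval -2.44 to -1.01, limma adjusted p = 0.0219). For BIRC3 it was -1.93 (95% interval -2.96 to -0.89, limma adjusted p = 0.0494), and for TNFAIP2 -1.15 (95% interval -1.76 to -0.53, limma adjusted p = 0.049). TNFAIP3 had a value of -1.54 (95% interval -2.62 to -0.45) and NFKBIA of -0.73 (95% interval -1.38 to -0.08), and neither was called (limma adjusted p = 0.0954 and 0.16). For NFKB1 (-0.02), NFKB2 (-0.29), RELB (-0.11), NFKBIE (-0.05) and NFKBIB (0.40) the 95% intervals included 0. The call was kept in 11 of 17 alternative settings for ICAM1, 6 of 17 for BIRC3 and 4 of 17 for TNFAIP2. The BIRC3 call was lost without any 1 control or OTA library, CW14 replicate 1 or 3, or OTA + CW14 replicate 1 (limma adjusted p of 0.0786 to 0.119). The TNFAIP2 call was lost without any 1 control, OTA or CW14 library or OTA + CW14 replicate 1 (limma adjusted p of 0.0576 to 0.12). The ICAM1 call was lost without control replicate 2 or 3, CW14 replicate 1 or any 1 OTA library (limma adjusted p of 0.0555 to 0.0761).

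Against CW14 alone, OTA + CW14 libraries had 8 members called lower and none higher, against 17.5% and 14.8% of all genes (32.3% in either direction). NFKBIA fell from 514.9 ± 119.7 to 36.0 ± 8.47 FPKM, a ratio of 14.3 (log2 difference -3.80, SE 0.21, limma adjusted p = 3.15e-07). TNFAIP3 fell from 257.8 ± 99.2 to 16.1 ± 6.99 FPKM, a ratio of 16.0. BIRC3 fell from 90.5 ± 42.3 to 6.33 ± 2.30, and ICAM1 from 73.8 ± 27.1 to 16.1 ± 0.901. RELB, NFKBIE, NFKB2 and TNFAIP2 fell by 1.53, 2.02, 1.03 and 0.88 on the log2 scale. NFKB1 and NFKBIB were not called, with -0.72 and -0.09, and these were the 2 members whose libraries overlapped between the groups. Without OTA + CW14 replicate 3 both were called lower, NFKB1 with -0.97 (limma adjusted p = 0.0222) and NFKBIB with -0.46 (limma adjusted p = 0.0299), which made 10 of 10. The other 8 lay below all CW14 libraries, against 21.9% of all genes tested, with 19.9% of all genes above them. Against control, OTA + CW14 had 5 members called lower (NFKBIA, TNFAIP3, NFKBIE, RELB and BIRC3) and none higher, against 16.8% and 12.0% of all genes (28.8% in either direction). Without OTA + CW14 replicate 3, NFKBIB was also called lower than control (-0.42, limma adjusted p = 0.0451). The BIRC3 call against control was lost without any 1 control library or OTA + CW14 replicate 1 (limma adjusted p of 0.0554 to 0.0695). These comparisons share libraries with those above and are not independent of them.

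The rest of the pathway was described with 98 further genes in 7 lists by role, of which 79 passed the filter. These lists were also chosen with earlier results of these data known. With OTA, 30 of the 79 fell and 2 rose, with a median log2 difference of -0.33, beside 12.9% lower and 4.82% higher among all genes tested. Falls were counted in 4 of 9 receptors, 4 of 17 adaptors and receptor kinases, 3 of 11 kinases, 3 of 4 other subunits and nuclear IkB genes, 4 of 12 other inhibitors, 4 of 14 secreted targets and 8 of 12 intracellular and surface targets. Among nuclear IkB genes, NFKBIZ, which encodes a coactivator of NF-kB target genes, fell by 2.76 and BCL3 by 2.19 on the log2 scale. In the other inhibitors, the ribonuclease gene ZC3H12A fell by 2.48 and the deubiquitinase gene OTUD7B by 0.99. The kinase genes MAP3K8 and MAP3K14, of which the second drives the RELB and p52 arm, fell by 2.10 and 1.52. Upstream, TICAM1, the adaptor of the receptor TLR3, fell by 1.84, RIPK1 by 1.46, TNFRSF12A by 1.49 and TNFRSF1A, the main TNF receptor, by 1.00. Among targets, IER3 fell by 2.95, GADD45B fell by 2.67, CCL20 fell by 2.78 and CXCL2 fell by 2.57. The 2 that rose were TLR2, a receptor for bacterial lipoproteins (log2 difference 0.58), and the complement gene C3 (0.99). The IkB kinase genes CHUK, IKBKB and IKBKG were not called, at -0.11, -0.37 and -0.33.

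**Figure D3:**
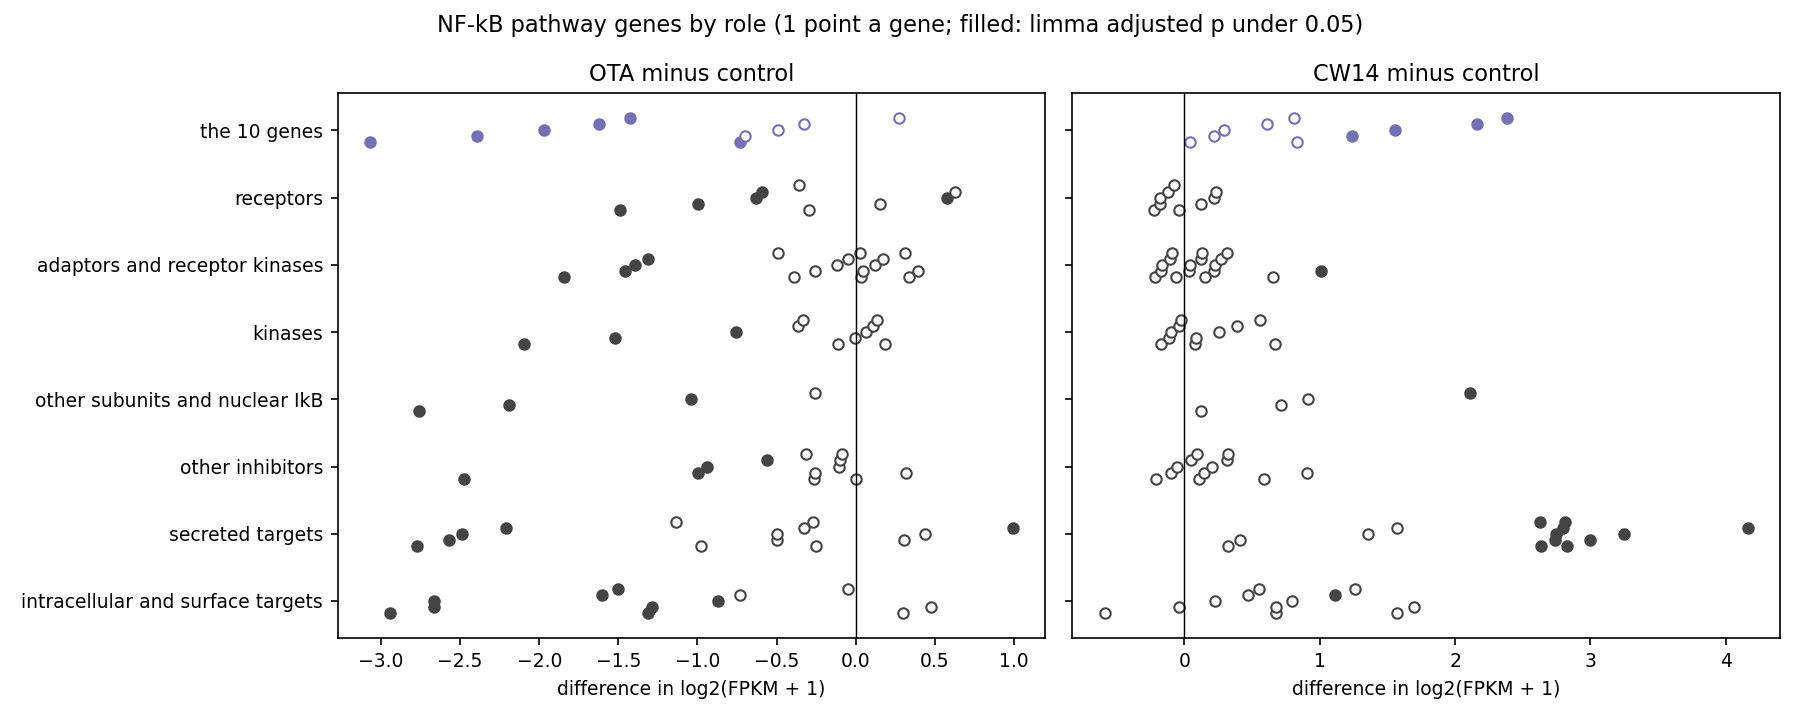
Differences in log2(FPKM + 1) for OTA (left) and CW14 (right) against control, 1 point a gene, for the 10 genes and the 79 other pathway genes by role, filled where the limma adjusted p was under 0.05 (the vertical place within a row has no meaning). With OTA filled points lie mostly below 0 in every role, and with CW14 all filled points lie above 0, with most of those among the 79 other genes in the secreted targets, of which 4 passed the filter only through the CW14 libraries.

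Of the 79, 4 secreted targets (CSF2, CSF3, CXCL10 and TNF) passed the filter only through the CW14 libraries where they were high, so they had to differ and are left out of the counts. Of the other 75, 9 rose with CW14 alone and none fell, beside 0.217% higher and 0.147% lower among all genes tested. Genes that passed only through CW14 were not removed from all genes tested, so the filters of these shares differ. Of those 9, 6 were among the 10 secreted targets left. The neutrophil chemokine gene CXCL8 had the largest log2 difference of the lists, 4.16. CXCL10, a chemokine gene for T cells, had 24.6, 9.27 and 18.2 FPKM with CW14 and at most 1.73 FPKM in the other groups. No receptor, kinase or other inhibitor was called. TICAM1 rose by 1.01 on the log2 scale, NFKBIZ by 2.11 and SDC4, a cell-surface proteoglycan gene, by 1.11, each the 1 called gene of its list. NFKBIZ had 187.5, 107.6 and 212.9 FPKM with CW14, against 32.9 to 40.3 in control, and kept its call in each of 18 alternative settings. CXCL8 kept its call in 11 of 18, SDC4 in 12 and TICAM1 in 7. RELA had 48.8, 54.8 and 48.1 FPKM and was not called (log2 difference 0.13).

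In OTA + CW14 against OTA, 9 of the 79 were called higher and 10 lower. This was not far from the 7.79% higher and 8.22% lower among all genes tested, so the counts are not read as a result about the pathway. NFKBIZ rose by 0.87 and IRF1, an interferon regulatory factor gene, by 1.27 on the log2 scale. The urokinase gene PLAU rose by 1.90, from low levels of 1.33, 0.406 and 0.231 FPKM with OTA. RIPK1 rose by 0.93 and TRADD, which couples it to the TNF receptor, by 0.83. RIPK2, the kinase downstream of NOD1 and NOD2, fell by 0.89, and BIRC2, the neighbour and paralog of BIRC3, fell by 0.64. TLR3 fell by 1.21 and GADD45B by 1.01. The TLR3 levels were low, at 2.22, 2.38 and 2.95 FPKM with OTA and 1.17, 0.609 and 0 in OTA + CW14. TNFRSF1B and LTBR, receptors of TNF family ligands, rose by 0.64 and 0.53, and IL1RAP fell by 0.73. COMMD1 rose by 1.06, while TAX1BP1, RNF11 and TAB2 fell by 0.62, 0.77 and 0.70, and C3 fell by 0.96. With only the OTA and OTA + CW14 libraries fitted, none of the 79 was called. The NFKBIZ call was kept in 6 of 18 alternative settings, that of IRF1 in 8, and those of LTBR and TAX1BP1 in 10 each. The interaction was called negative in 6 of the 75 genes whose mean without the CW14 group reached 1 FPKM, among them SDC4 (-1.40), and positive in none. Among all genes tested, which were not limited in this way, 1.49% were called negative and 1.85% positive. Interaction calls over all genes ran from 17 to 1595 when 1 library was left out, so the count of 6 is unstable.

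**Figure D4:**
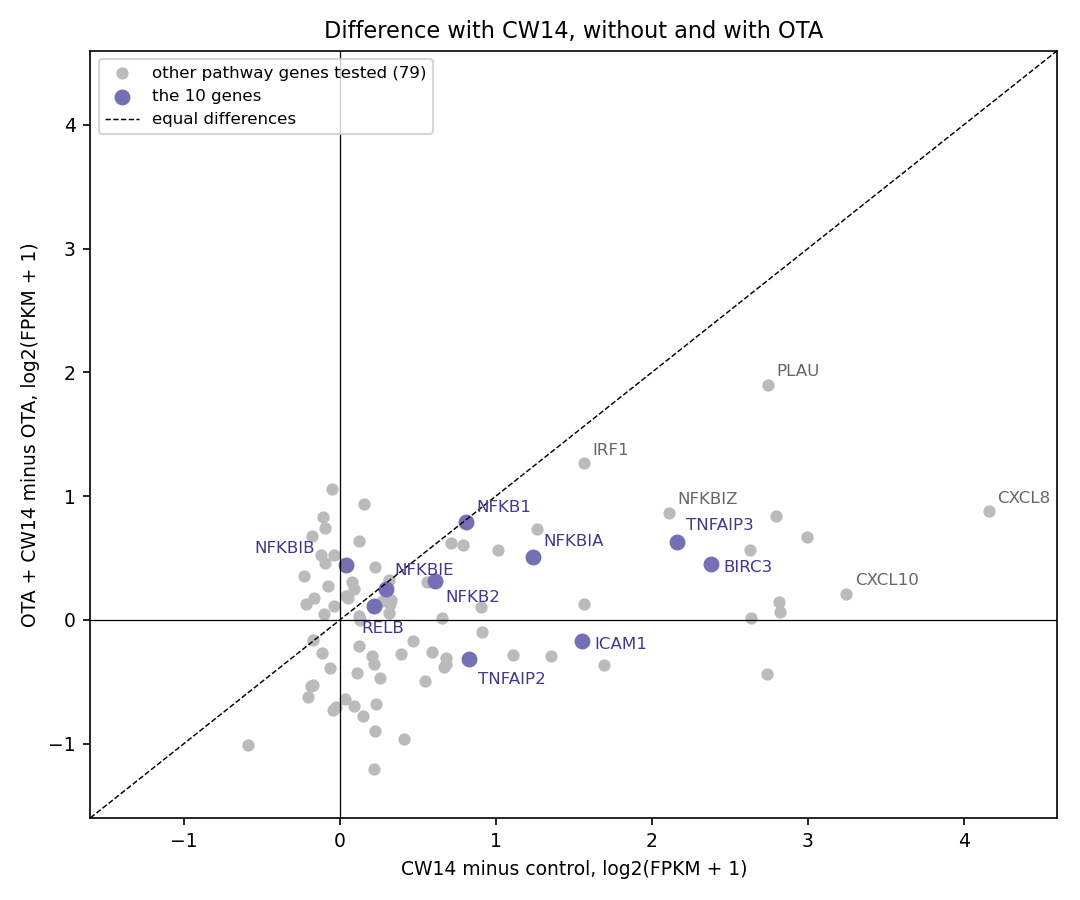
Difference in log2(FPKM + 1) with CW14 in cells without OTA (horizontal) against that in cells with OTA (vertical), from separate libraries, for the 10 genes and 79 other pathway genes, with a dashed line at equality. TNFAIP3, BIRC3, ICAM1 and NFKBIA lie below the line, and NFKB1 lies near it at 0.81 and 0.79.

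The members also differed in how they varied over the 12 libraries, given here as a description over libraries that share groups. Pearson's r of log2(FPKM + 1) was 0.97 between NFKBIA and NFKBIE and 0.95 between TNFAIP3 and BIRC3. NFKBIB had its lowest value with TNFAIP2, at -0.19. The genes most like TNFAIP3 among all tested were CXCL2, NFKBIZ and RCAN1 (r from 0.98 to 1.00). Those most like NFKBIA were ELF3, ITPKC and FRMD4B (r = 0.99 each). NFKBIE was closest to CCRN4L, BBC3 and BCL3 (r = 0.98 each), and RELB to C11orf96, RBM20 and CSRP1 (r = 0.97 each). BIRC3 was closest to CXCL3, BDKRB2 and ETS1 (r from 0.96 to 0.97), and ICAM1 to CSF3, ACKR3 and BIRC3 (r from 0.96 to 0.98). CSF3 passed the filter only through the CW14 libraries, so its likeness to ICAM1 was partly set by the filter. For NFKB1 they were IRF1, SPTB and AP5B1 (r from 0.90 to 0.94), and for NFKB2 PCF11, BIRC3 and BDKRB2 (r from 0.94 to 0.95). TNFAIP2 was nearest to CYP1A1, NEAT1 and PADI2 (r from 0.88 to 0.92), and NFKBIB to AP5Z1, CNKSR1 and RTKN (r from 0.94 to 0.95).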

How the data were processed

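Per the labels, 12 Caco-2 libraries were sequenced with paired reads. The authors deposited a single table of FPKM by gene and library. The submitters' processing notes name cutadapt 1.10 beside TopHat2 2.0.13, Cufflinks 2.2.1, Cuffnorm, Cuffdiff and the build hg19. Which step each tool did, the gene annotation and how libraries were scaled is not stated in those notes. FPKM are not counts, so absolute depth is unknown. Loci are as deposited, and whether starts count from 0 is not stated.

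The 12928 genes averaging 1 FPKM or more were analysed as log2(FPKM + 1). The model in limma 3.58.1 (R 4.3.3) had 1 term per group, used every library and an intensity trend, and gave two-sided tests. Benjamini-Hochberg adjustment covered the 12928 genes. The script was tested on simulated data. A marker gene is not reported here. The members and lists were chosen with earlier results of these data known. Besides the members and RELA, named pathway genes are the 2 largest called rises and falls of each list in 3 comparisons, with CHUK, IKBKB and IKBKG added afterwards, and the 3 genes with the highest Pearson correlation with each member. Relative depth was the most common ratio of values under 0.3 FPKM. Alternatives were a pseudocount of 0.1, no filter, 2 other scalings, only the compared groups, a replicate block and leaving out each library.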

Additional observations from a re-analysis of the deposited data

Results flagged for a closer look

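The difference with CW14 was not the same without and with OTA in 3 members by a test of the interaction (limma, adjusted p under 0.05). The interaction was -1.72 on the log2 scale for ICAM1, which had higher FPKM in 3 of 3 CW14 libraries than in any control and lower FPKM in 3 of 3 OTA + CW14 libraries than in any OTA library. It was -1.93 for BIRC3, with higher FPKM in 3 of 3 libraries with bacteria in both settings, and -1.15 for TNFAIP2. TNFAIP2 had 4.63 ± 0.212 FPKM with CW14 against 2.19 ± 0.416 in control, and 2.12 ± 0.680 with OTA + CW14 against 2.85 ± 0.515 with OTA (SD, n = 3). In CW14 against control 9.66% of all genes tested lay above without overlap. In OTA + CW14 against OTA 17.8% lay above and 16.6% below, with 1 of 10 members each way. The interaction call was kept in 11 of 17 alternative settings for ICAM1, 6 for BIRC3 and 4 for TNFAIP2.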

How the results depend on the processing

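The 5 members other than NFKB2 that fell with OTA kept their call in every setting tried. With CW14 alone the count of members called went from 4 to 2 without a filter and to 1 with only the compared groups fitted, and over all genes from 47 to 25 without a filter. For the other pathway genes, the 4 that passed only through CW14 included, it went from 13 to 8 without a filter. For the interaction the members called went from 3 to 1 with a pseudocount of 0.1 and to 1 without a filter, and all genes called from 431 to 235 without a filter. With only the compared groups fitted, genes called went from 2288 to 4621 for OTA (members from 6 to 9), from 2070 to 70 for OTA + CW14 against OTA (pathway genes from 19 to 0), from 3729 to 1596 for OTA + CW14 against control and from 4179 to 1521 against CW14.

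Leaving out 1 library at a time gave these ranges. Members called were 5 to 7 with OTA, 0 to 5 with CW14, 0 to 2 in OTA + CW14 against OTA, 4 to 6 against control, 8 to 10 against CW14 and 0 to 4 for the interaction. All genes called were 1299 to 4364, 4 to 123, 653 to 3388, 2265 to 4776, 2780 to 5297 and 17 to 1595 in the same order. Pathway genes called were 24 to 39, 3 to 17 and 6 to 25 in the first 3. Small differences changed sign: NFKBIB with CW14 (-0.070 to 0.13); RELB (-0.077 to 0.36), NFKBIE (-0.052 to 0.40) and RELA (-0.092 to 0.093) in OTA + CW14 against OTA; NFKB1 (-0.15 to 0.41), NFKBIB (-0.42 to 0.19) and TNFAIP2 (-0.16 to 0.15) against control; NFKBIB against CW14 (-0.46 to 0.15). In the interaction these were NFKB1 (-0.27 to 0.30), RELB (-0.34 to 0.14), NFKBIE (-0.35 to 0.14) and RELA (-0.22 to 0.0054). NFKB1 in the interaction was also 0.038 with a pseudocount of 0.1, and RELA in OTA + CW14 against OTA was -0.031 when median-centred. Of these, NFKBIB was called at its low end, without OTA + CW14 replicate 3, against control (limma adjusted p = 0.0451) and against CW14 (0.0299).

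Groups share replicate numbers, but of 18 pairs with the same number 1 had a correlation of deviations over 0.1 (-0.15 to 0.15). No pairing by number was seen, and the main fit used none. Low correlations over many genes cannot exclude that libraries with the same number shared a batch. With a replicate block the members called were 6, 4, 0, 5, 8 and 2 in the order above, and genes called for the interaction went from 431 to 286. Where a call was lost, the cause was not tested. Absolute depth is unknown, so no counting error can be given, and the log2(FPKM + 1) scale shrinks changes of low genes such as TNFAIP2 and NFKB2.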
